A study of Mus musculus with 8 samples.

Results

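The core of the spliceosome was described here through the 49 protein-coding genes whose symbols begin with Snrp, Sf3a, Sf3b, Prpf, U2af or Lsm followed by a digit. They were found by symbol alone among 13588 genes of the count table, and all 49 were kept by the filter on low counts, which left 13552 genes. The cells were BaF3, a mouse line that the labels call pro-B and that normally needs interleukin-3, and all 8 libraries carried Jak2 V617F, a change that makes the kinase active without cytokine. Ybx1, the gene of YB-1, a nucleic acid binding protein with a cold shock domain, was knocked down with the hairpin sh1Ybx1 (2 libraries) or sh2Ybx1 (2 libraries), and the control hairpin shNT was carried by 4 libraries. All were grown in RPMI with serum, polyadenylated RNA was sequenced, and the study asked how mRNA processing and splicing differ when Ybx1 is lowered. The labels name no time after the hairpins, no clone and no separate cultures, so the spread behind each p-value is that of these libraries and may be technical.

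The spliceosome removes introns. U1 pairs with the 5′ splice site, U2AF reads the polypyrimidine tract and the AG at the 3′ splice site, and U2 with its SF3A and SF3B complexes holds the branch point. The U4/U6 and U5 particles then join as the tri-snRNP, and helicases and the Prp19 complex reshape the whole into a catalytic machine. Each snRNA except U6 carries a ring of Sm proteins, while U6 carries a ring of Lsm2 to Lsm8. The 49 genes were ordered by these roles.

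Ybx1 transcript was at 167 ± 39.2 CPM (counts scaled by the effective library size) in the knockdown libraries and 1675 ± 65.4 CPM in shNT (SD, n = 4 each), with every knockdown library below every shNT library. Total counts ran from 22779437 to 26464953 in the knockdown libraries and from 26093847 to 37549926 in shNT. The library of shNT replicate 4 stood apart: its normalisation factor was 0.847, against 0.993 to 1.06 in the other 7, and it held the lowest of the 8 values for 28 of the 49 genes and for 26.9% of all genes tested. Results are therefore given with it, and without it where that matters. Of 14 pro-B markers only Cd79a, Cd79b and Ptprc had rows in the count table, and 9 of the 14, Ebf1, Rag1 and Rag2 among them, were listed at 0 TPM in all 8 libraries. Genes of the next lists are called at an edgeR adjusted p under 0.05 with both hairpins against shNT. Of all genes 14.8% were called higher and 14.2% lower. Summed mitochondrial mRNA was 19460 to 36109 CPM in the knockdown libraries and 6314 to 21133 CPM in shNT, with 5 of 7 measured genes called higher. Summed nuclear-retained RNA (3 measured genes, 2 called higher) was 1510 to 2117 CPM in the knockdown libraries and 256 to 1164 CPM in shNT. Summed levels of 9 myeloid genes (5 called higher, 1 lower) were 161 to 289 CPM in shNT. They were 501 and 424 CPM in sh1Ybx1, and 211 and 203 CPM, inside the shNT range, in sh2Ybx1. With sh1Ybx1 alone 5 were called higher and 1 lower (11.2% and 7.96% of all genes). With sh2Ybx1 alone 1 was called higher and 0 lower (10.4% and 9.45% of all genes). Summed levels of 4 mast cell genes (2 called higher, 1 lower) were 479 to 629 CPM in the knockdown libraries and 849 to 1254 CPM in shNT. Gata2 made up most of that sum, with means of 528 CPM in the knockdown libraries and 985 in shNT. Hdc was lower too, at 2.14 against 5.22 CPM. Cpa3, at 22.4 against 2.99 CPM, and Hpgds, at 0.625 against 0.0898 CPM, went the other way. The part of these in the results below was not tested.

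In these cells the genes spanned a wide range of abundance, compared here per length in TPM (transcript abundance scaled to the library). Snrpe, a Sm ring protein, was the most abundant by its mean over the 8 libraries, 431 TPM, with 409.5 and 389.7 TPM in sh1Ybx1 and 535 and 582 in sh2Ybx1, against 351, 517, 392 and 273 TPM in shNT replicates 1 to 4. Snrpg, its neighbour in the ring, came next by the same mean, at 292 TPM, with 230.2 and 274 TPM in sh1Ybx1 and 414 and 381 in sh2Ybx1, against 234, 320.2, 299 and 181 TPM in shNT replicates 1 to 4. Snrpe was above Snrpg in each of the 8 libraries. Snrpb, also of the ring, was below Snrpg in the knockdown libraries, with a mean of 235 TPM against 325 for Snrpg, and above it in shNT, with 309.8 against 259.

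At the other end of the means over all 8 libraries stood Lsm11, a protein of the U7 particle that processes histone mRNA ends, with a mean of 8.73 TPM and 5.63 and 5.27 TPM in sh1Ybx1 and 9.21 and 11.8 in sh2Ybx1, against 11.9, 5.48, 9.40 and 11.2 TPM in shNT replicates 1 to 4. Prpf40b, a U1-associated protein, had a mean of 14.1 TPM and 25.5 and 6.13 TPM in sh1Ybx1 and 20.1 and 14.3 in sh2Ybx1, against 17.2, 14.1, 8.51 and 6.58 TPM in shNT replicates 1 to 4. Lsm11 was the higher of the pair in shNT replicates 3 and 4 and the lower in the other 6 libraries. Prpf4 had a mean of 12.9 TPM in the knockdown libraries, below the 16.5 of Prpf40b there, and 17.2 TPM in shNT, above the 11.6 of Prpf40b. The median over the 49 genes was 80.7 TPM.

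**Figure D1:**
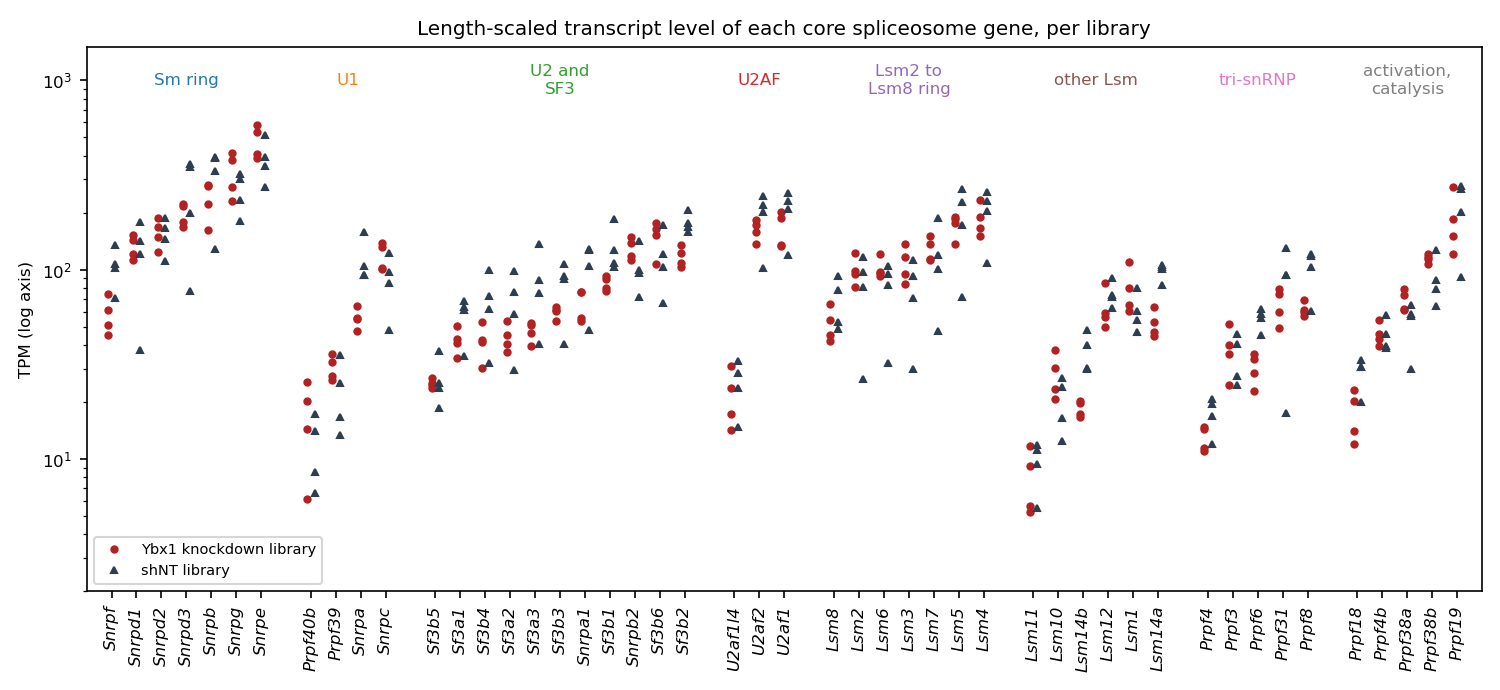
TPM (log axis) of 48 genes in each library, grouped by role and ordered by mean level. Circles are the 4 Ybx1 knockdown libraries and triangles the 4 shNT libraries. Means run from 8.73 TPM for Lsm11 to 431 TPM for Snrpe, and most genes overlap between the groups.

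Snrpf, another Sm ring gene, was measured differently by the deposited tables. It had 0.681 and 1.00 CPM in sh1Ybx1 and 0.907 and 0.71 in sh2Ybx1, against 1.07, 1.09, 1.35 and 0.905 CPM in shNT replicates 1 to 4, but a mean of 80.7 TPM, with 60.9 and 74.0 TPM in sh1Ybx1 and 45.2 and 51.1 in sh2Ybx1, against 107, 102, 135 and 70.9 TPM in shNT replicates 1 to 4. Of its 861 annotated exonic bases 735, or 85.4%, overlap exons of other genes in the GENCODE M21 annotation of GRCm38. Its counts are held to be uncertain here, as are those of U2af1l4, where 1094 of 1656 exonic bases (66.1%) overlap other genes. U2af1l4 had means of 13.8 CPM and 23.2 TPM over the 8 libraries, without the wide gap seen for Snrpf. The overlap reached at most 18.1% in each of the other 47 genes. The part of the overlap in the low counts was not tested.

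With both hairpins against shNT, 10 of the 49 genes were lower and 1 was higher (edgeR quasi-likelihood test over all 13552 genes, Benjamini-Hochberg adjusted p under 0.05, here named called). This is 22.4% of the 49 genes, against a background of 28.9% of all genes. The 10 lower genes are 20.4% of the 49 against 14.2% of all genes called lower, and the 1 higher gene is 2.04% against 14.8% called higher. The median log2 fold change was -0.15 over the 49 genes, -0.00390 over all genes tested and -0.06 over protein-coding genes. Levels of the 10 lower genes in the knockdown libraries were 60.8% to 72.9% of shNT by the fitted fold change. On log2(FPKM + 1) limma called 1 of the 49 genes, against 2.88% of all genes. The median over the 49 genes was then 0.05, of the other sign, as was that over all genes, 0.05. Since these are bulk libraries, fewer cells of a type and less RNA per cell cannot be told apart. In the authors' deposited table of gene tests, 10 of the 49 genes had an adjusted p-value under 0.05, 1 higher and 9 lower.

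**Figure D2:**
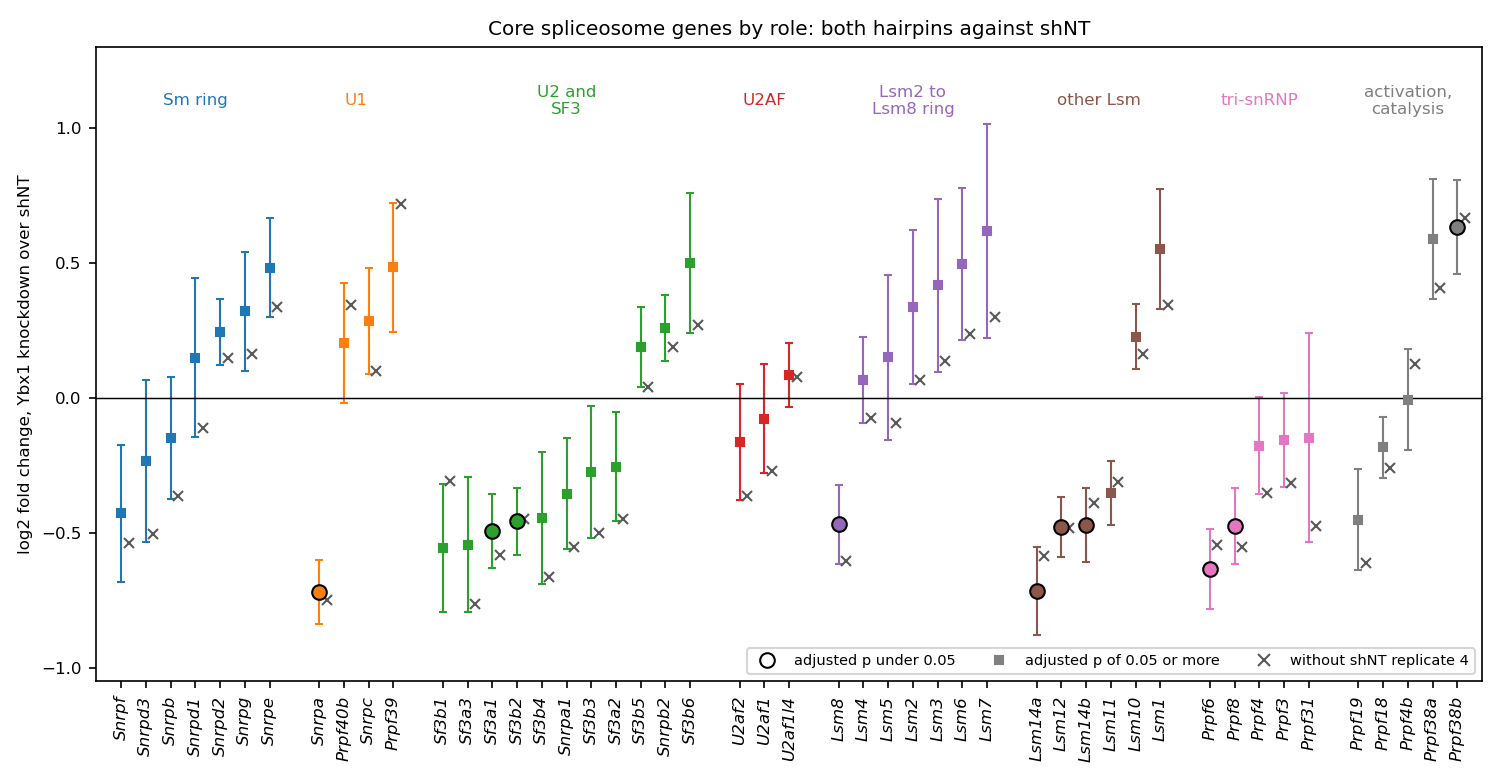
Log2 fold change of 48 genes, both hairpins over shNT, by role; bars are ± 1 SE, large outlined circles are genes with adjusted p under 0.05, and crosses give the same value without shNT replicate 4. The called lower genes drawn lie between -0.72 and -0.46, Prpf38b is the called higher gene at 0.63, and 6 of 7 genes of the Lsm2 to Lsm8 ring lie above 0, or 4 of 7 without shNT replicate 4.

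Among the U1 genes Snrpa was lower. It encodes the U1 A protein, which binds a stem loop of U1 snRNA (chr7:27187005-27196271, minus strand, GRCm38). It had 51.2 and 62.2 CPM in sh1Ybx1 and 57.8 and 60.6 in sh2Ybx1, against 88.7, 90.3, 107 and 95.6 CPM in shNT replicates 1 to 4. The groups did not overlap, and the knockdown level was 60.8% of shNT (log2 fold change -0.72, SE 0.119, edgeR adjusted p = 0.00537).

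Prpf39, a U1-associated protein best known from yeast, was the highest of the U1 genes by fold change, with 72.7 and 66.8 CPM in sh1Ybx1 and 83.1 and 78.6 in sh2Ybx1, against 53.0, 46.9, 34.4 and 80.7 CPM in shNT replicates 1 to 4. With shNT replicate 4 above 3 of the 4 knockdown libraries it did not pass (log2 fold change 0.48, SE 0.239, edgeR adjusted p = 0.159), and without that library its fold change was 0.72 (edgeR adjusted p = 0.0034). Snrpc, for the U1 C protein, at 0.28, and Prpf40b, at 0.20, did not pass. In CPM, Prpf40b had 20.9 and 19.5 CPM in sh1Ybx1 and 31.8 and 25.8 in sh2Ybx1, against 24.6, 17.0, 14.4 and 27.9 CPM in shNT replicates 1 to 4.

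Among 11 genes of the U2 particle and its SF3A and SF3B complexes, 2 were called lower, against 14.2% of all genes. The summed level of the 11 genes was 1797 ± 107 CPM in the knockdown libraries and 2281 ± 106 CPM in shNT (SD, n = 4 each). Sf3a1 (chr11:4160350-4182541, plus strand), the largest SF3A subunit, had 139.98 and 177 CPM in sh1Ybx1 and 133 and 148 in sh2Ybx1, against 199, 235, 223 and 184 CPM in shNT replicates 1 to 4 (log2 fold change -0.49, SE 0.136, edgeR adjusted p = 0.0286). Sf3b2 (chr19:5273932-5295455, minus strand), an SF3B subunit, had 342 and 408 CPM in sh1Ybx1 and 368 and 399 in sh2Ybx1, against 483, 497, 539 and 562 CPM in shNT replicates 1 to 4 (log2 fold change -0.46, SE 0.124, edgeR adjusted p = 0.0272). Neither gene's groups overlapped. The median over the 11 genes was -0.35, and 8 of the 11 had a fold change below 0.

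Sf3b1, the SF3B subunit that clamps the branch helix, had the lowest fold change of the 11 and did not pass, with 445 and 441 CPM in sh1Ybx1 and 399 and 402 in sh2Ybx1, against 578, 524, 429 and 948 CPM in shNT replicates 1 to 4 (log2 fold change -0.56, SE 0.238, edgeR adjusted p = 0.112). Its shNT replicate 4 was far above the others, and shNT replicate 3 lay inside the knockdown range. Sf3b6, the small subunit at the branch adenosine, had the highest fold change, with 90.1 and 88.2 CPM in sh1Ybx1 and 90.2 and 94.8 in sh2Ybx1, against 60.6, 95.6, 64.8 and 35.9 CPM in shNT replicates 1 to 4 (log2 fold change 0.50, SE 0.259, edgeR adjusted p = 0.178). Here shNT replicate 4 was the lowest of the 8 libraries and shNT replicate 2 the highest, so the groups overlapped. Without shNT replicate 4, 8 of the 11 were called lower and none higher, against 26.7% and 23.6% of all genes in that fit: Sf3a1, Sf3a2, Sf3a3, Sf3b1, Sf3b2, Sf3b3, Sf3b4 and Snrpa1, between -0.76 for Sf3a3 and -0.31 for Sf3b1.

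None of the 3 U2AF genes was called in the edgeR fit (0 at an unadjusted p under 0.05 too, and 0 called by DESeq2). U2af2, which reads the polypyrimidine tract, had 207 and 253 CPM in sh1Ybx1 and 257 and 294 in sh2Ybx1, against 287, 359.8, 303 and 177 CPM in shNT replicates 1 to 4 (log2 fold change -0.16, SE 0.214, edgeR adjusted p = 0.592). U2af1l4, a paralogue of the AG-reading U2af1, had 12.4 and 13.7 CPM in sh1Ybx1 and 15.8 and 15.1 in sh2Ybx1, against 13.6, 13.3, 12.7 and 14.0 CPM in shNT replicates 1 to 4 (log2 fold change 0.08, SE 0.119, edgeR adjusted p = 0.619). Both overlapped between groups, and U2af1 was at -0.08. Without shNT replicate 4, U2af2 alone of the 3 was called (50.3% of all genes were), at -0.36 (edgeR adjusted p = 0.0304).

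The Sm ring had no called gene among 7 in the edgeR fit (1 at an unadjusted p under 0.05, and 0 called by DESeq2). Its highest fold change was that of Snrpe, with 151 and 151 CPM in sh1Ybx1 and 204 and 203 in sh2Ybx1, against 122, 172, 114 and 94.0 CPM in shNT replicates 1 to 4 (log2 fold change 0.48, SE 0.185, edgeR adjusted p = 0.0821). Both sh2Ybx1 libraries were above all shNT libraries, and both sh1Ybx1 libraries lay inside the shNT range. The lowest was that of Snrpf, at -0.43 on its uncertain counts, and Snrpg, at 0.32, had 74.8 and 78.4 CPM in sh1Ybx1 and 96.2 and 90.4 in sh2Ybx1, against 61.0, 102, 59.3 and 48.6 CPM in shNT replicates 1 to 4. Without shNT replicate 4, Snrpd3 and Snrpb of the 7 were called lower (26.7% of all genes were), at -0.50 (edgeR adjusted p = 0.0143) and -0.36 (edgeR adjusted p = 0.0283), and the median over the 7 was -0.11, against 0.15 with all libraries.

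In the Lsm2 to Lsm8 ring of U6, 6 of 7 genes had a fold change above 0 and none of these 6 passed. Lsm8 (chr6:18848579-18855751, plus strand), the subunit that keeps this ring in the nucleus, was the exception and was lower, with 31.0 and 32.2 CPM in sh1Ybx1 and 33.1 and 34.6 in sh2Ybx1, against 42.7, 51.3, 51.9 and 35.0 CPM in shNT replicates 1 to 4 (log2 fold change -0.47, SE 0.147, edgeR adjusted p = 0.0447). The groups met closely, since shNT replicate 4 was only just above the highest knockdown library. Lsm7 had the highest fold change, with 40.1 and 38.9 CPM in sh1Ybx1 and 49.5 and 51.3 in sh2Ybx1, against 26.9, 49.0, 30.4 and 9.69 CPM in shNT replicates 1 to 4 (log2 fold change 0.62, SE 0.395, edgeR adjusted p = 0.267), and its shNT libraries spread from 9.69 to 49.0 CPM. Without shNT replicate 4 the median of the 7 was 0.07, against 0.34 with it. Lsm4 was then at -0.07, against 0.07 with all libraries, Lsm5 at -0.09, against 0.15, and Lsm8 at -0.60, so that 4 of the 7 were above 0.

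Of the 6 other Lsm genes 3 were called lower, against 14.2% of all genes. Lsm14a and Lsm14b encode related proteins of cytoplasmic RNA granules that repress translation. Lsm14a (chr7:34344646-34393315, minus strand) had 132 and 145 CPM in sh1Ybx1 and 119 and 128 in sh2Ybx1, against 180.3, 189, 207 and 281 CPM in shNT replicates 1 to 4 (log2 fold change -0.71, SE 0.163, edgeR adjusted p = 0.0146), and Lsm14b (chr2:180024987-180035465, plus strand) had 50.4 and 53.3 CPM in sh1Ybx1 and 48.0 and 48.6 in sh2Ybx1, against 69.8, 65.4, 57.5 and 84.6 CPM in shNT replicates 1 to 4 (log2 fold change -0.47, SE 0.138, edgeR adjusted p = 0.0352). Lsm12 (chr11:102162497-102185296, minus strand), a protein with an Lsm domain that is not part of a known splicing ring, had 76.0 and 79.5 CPM in sh1Ybx1 and 77.5 and 77.1 in sh2Ybx1, against 109.6, 114, 93.8 and 115 CPM in shNT replicates 1 to 4 (log2 fold change -0.48, SE 0.112, edgeR adjusted p = 0.0156). In all 3 every knockdown library was below every shNT library, and shNT replicate 4 was the highest of the 8. Lsm1, which takes the place of Lsm8 in the cytoplasmic ring that starts mRNA decay, had 55.9 and 52.3 CPM in sh1Ybx1 and 66.1 and 64.2 in sh2Ybx1, against 40.4, 54.7, 42.2 and 24.4 CPM in shNT replicates 1 to 4 (log2 fold change 0.55, SE 0.222, edgeR adjusted p = 0.0948) and was not called. Lsm1 and Lsm8, the alternative subunits of these rings, thus had fold changes of opposite sign, and only that of Lsm8 was called. The call of Lsm8 was lost in the fit without shNT replicate 1, 2 or 3. Its adjusted p was 0.443 by limma on log2(TPM + 1) and 0.0553 in the authors' deposited table of gene tests. The difference between Lsm1 and Lsm8 was not tested.

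Of 5 tri-snRNP genes 2 were called lower, against 14.2% of all genes. Prpf8 (chr11:75486816-75509449, plus strand), the scaffold at the catalytic centre, was one of the genes with the most counts, with 375 and 461 CPM in sh1Ybx1 and 414 and 463 in sh2Ybx1, against 537, 665, 639 and 538 CPM in shNT replicates 1 to 4 (log2 fold change -0.47, SE 0.14, edgeR adjusted p = 0.0363). Prpf6 (chr2:181591868-181655660, plus strand), which bridges U5 with U4/U6, had 83.0 and 98.0 CPM in sh1Ybx1 and 89.6 and 86.2 in sh2Ybx1, against 136, 115, 131 and 171 CPM in shNT replicates 1 to 4 (log2 fold change -0.63, SE 0.148, edgeR adjusted p = 0.0158). Neither overlapped between the groups. Prpf31, which holds U4/U6 together, had 74.5 and 86.6 CPM in sh1Ybx1 and 82.6 and 90.8 in sh2Ybx1, against 94.3, 121, 125 and 29.2 CPM in shNT replicates 1 to 4 (log2 fold change -0.15, SE 0.386, edgeR adjusted p = 0.801), and here shNT replicate 4 was far below the other shNT libraries. Without it Prpf31 was at -0.47 (edgeR adjusted p = 0.0102), Prpf3 at -0.32 (edgeR adjusted p = 0.0437) and Prpf4 at -0.35 (edgeR adjusted p = 0.0201), so that all 5 tri-snRNP genes were called lower, against 26.7% of all genes in that fit.

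The called higher gene was Prpf38b, one of 5 genes that act at activation or catalysis. It encodes a Prp38-related protein whose role is less well described than that of Prpf38a. Prpf38b (chr3:108902805-108911727, minus strand) had 268 and 244 CPM in sh1Ybx1 and 255 and 246 in sh2Ybx1, against 179.97, 177, 112 and 184 CPM in shNT replicates 1 to 4 (log2 fold change 0.63, SE 0.174, edgeR adjusted p = 0.0283). All knockdown libraries were above all shNT libraries, and shNT replicate 3 was well below the other 3. Prpf38a had a similar fold change without passing, with 93.7 ± 7.85 CPM in the knockdown libraries and 62.1 ± 20.8 CPM in shNT (SD, n = 4 each) (log2 fold change 0.59, SE 0.223, edgeR adjusted p = 0.0805). Prpf19, the ubiquitin ligase at the heart of the Prp19 complex, had the lowest of the 5, with 184 and 237 CPM in sh1Ybx1 and 265 and 295 in sh2Ybx1, against 307, 385, 395 and 240.2 CPM in shNT replicates 1 to 4 (log2 fold change -0.45, SE 0.186, edgeR adjusted p = 0.102), and was called without shNT replicate 4, at -0.61 (edgeR adjusted p = 0.00486). Prpf4b, a kinase, and Prpf18, a second-step factor, were at -0.01 and -0.18.

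**Figure D3:**
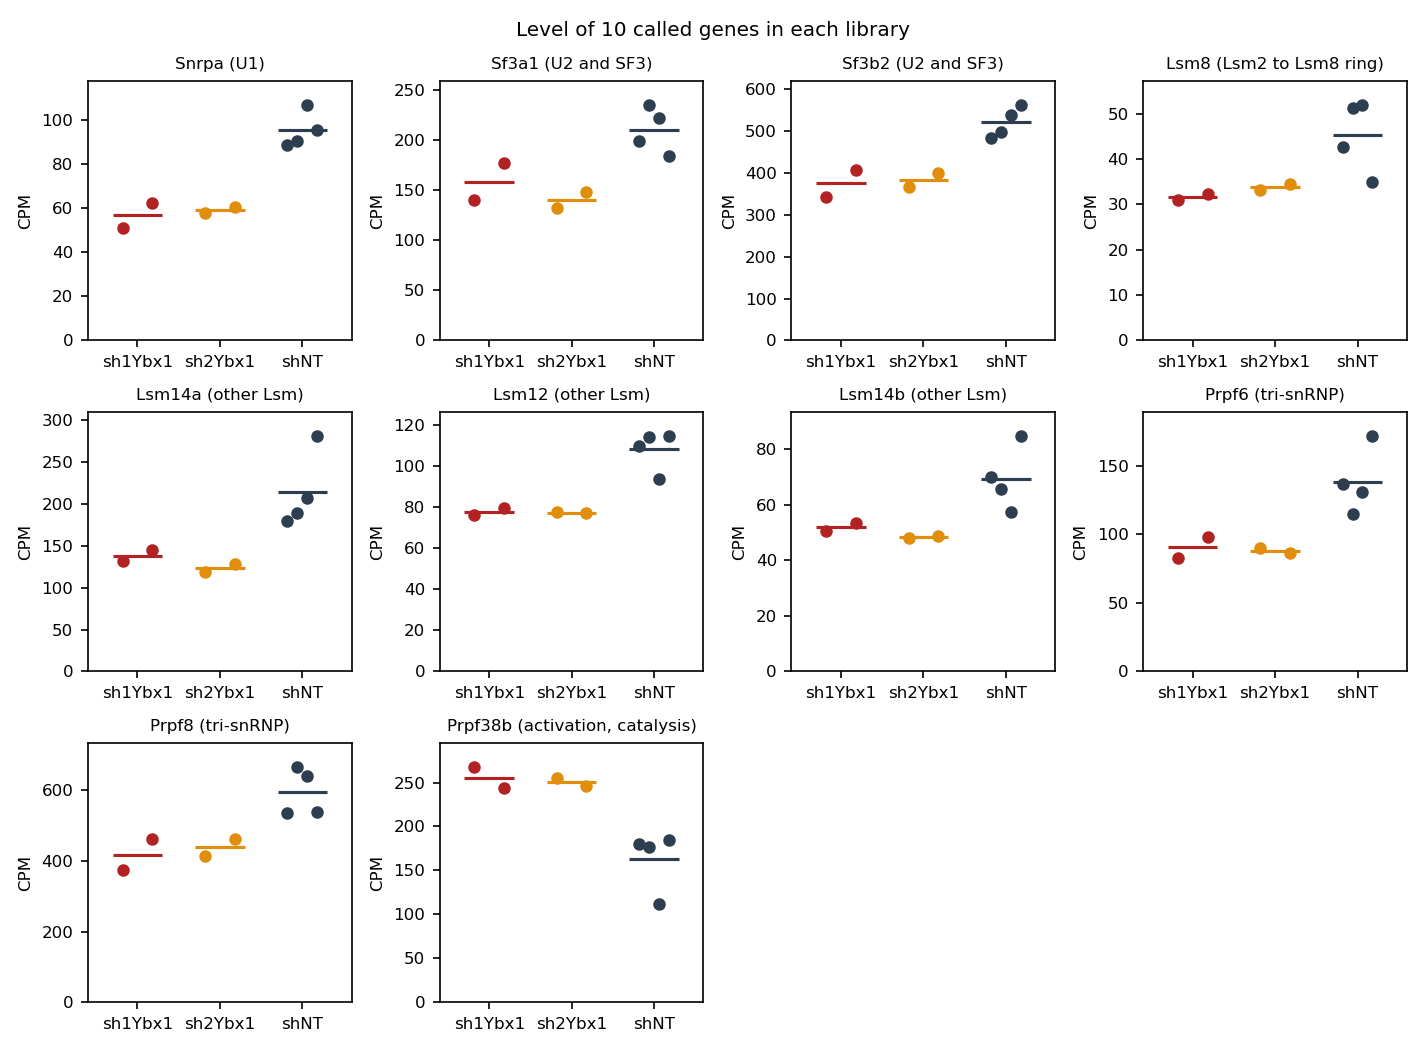
CPM of 10 of the called genes in each library (points) with the group mean (line); axes start at 0. In each panel the sh1Ybx1 and sh2Ybx1 libraries lie on one side of all 4 shNT libraries, above them for Prpf38b and below them for the other 9.

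Across the 49 genes, 11 had groups that did not overlap, 10 with the knockdown libraries lower and 1 with them higher, and these were the called genes. Over all genes tested, 15% had every knockdown library lower and 16.6% had every one higher. Snrpa was called in all 8 fits that left out 1 library, and 9 of the 11 lost the call in at least 1. In fits without 1 knockdown library, which leave 1 library in that arm, fewer of the 49 genes and of all genes were called. The median log2 fold change over the 49 genes was then -0.22 to -0.09. Without shNT replicates 1 to 3 the number of called genes was 8, 14 (9 lower, 5 higher) and 9, against 22.7%, 27.2% and 24.7% of all genes. Without shNT replicate 4 it was 28 (25 lower, 3 higher), or 57.1% of the 49 genes against 50.3% of all genes, and the 28 included all 11. Lower genes were then 51.0% against 26.7% of all genes, and higher genes 6.12% against 23.6%. The 2 higher genes besides Prpf38b were Prpf39 and Lsm1.

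The fold changes ran with the length of the protein. The 17 genes with under 500 coding bases, 15 of them Sm and Lsm proteins and the others Sf3b5 and Sf3b6, had a median log2 fold change of 0.24, with 14 above 0. The 32 longer genes had a median of -0.26, with 25 below 0. Over all genes tested with an annotated coding length, the 992 short ones had a median of 0.25 and the 10286 longer ones -0.09. In shNT replicate 4 the short spliceosome genes had a median log2 ratio of -0.91 to the mean of the other shNT libraries, against -0.19 for the longer ones, and without that library the medians of the fold change were 0.14 and -0.38. Spearman's rho between coding length and fold change was -0.49 across the 49 genes and -0.18 across 11263 genes, as a description: these points share libraries, and genes are not independent replicates. The split at 500 bases was chosen after the values were seen.

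Each hairpin was also set against the same 4 shNT libraries, so these comparisons share their controls. With sh1Ybx1, 4 of the 49 genes were lower and 1 higher, against a background of 19.2% of all genes called (7.96% lower, 11.2% higher). They included Snrpa (-0.75), Lsm12 (-0.48) and Lsm11 (-0.67), which were lower, and Lsm10 (0.55), which was higher. With sh2Ybx1, 6 were lower and 0 higher in the edgeR fit, against a background of 19.9% (9.45% lower, 10.4% higher). DESeq2 called 10 lower and 3 higher with sh2Ybx1, against 28.1% of all genes called. The 6 included Snrpa (-0.69), Lsm14a (-0.80), Prpf6 (-0.65), Lsm12 (-0.48) and Sf3a1 (-0.58). All 11 genes called on the average of the hairpins had the same sign with each hairpin. A call on that average favours a shared sign, and the controls are the same, so this is a description only.

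The U7 pair Lsm10 and Lsm11 differed most between hairpins. Lsm10 had 26.6 and 23.3 CPM in sh1Ybx1 and 16.0 and 15.6 in sh2Ybx1, against 16.8, 16.7, 18.6 and 15.7 CPM in shNT replicates 1 to 4. Lsm11 had 22.9 and 21.6 CPM in sh1Ybx1 and 33.9 and 35.1 in sh2Ybx1, against 36.1, 31.9, 33.1 and 40.4 CPM in shNT replicates 1 to 4. Both sh1Ybx1 libraries were above the shNT libraries for Lsm10 and below them for Lsm11, while the sh2Ybx1 libraries lay inside the shNT range for Lsm11 and inside or just below it for Lsm10. The test of sh1Ybx1 against sh2Ybx1 itself gave 0.65 (SE 0.171, edgeR adjusted p = 0.125) for Lsm10 and -0.63 (SE 0.168, edgeR adjusted p = 0.13) for Lsm11. Of the 49 genes 0 passed that test in edgeR, against a background of 0.524% of all genes called. An unadjusted p under 0.05 was found for 3, Prpf18 being the third. DESeq2 called 2 of the 49, against 5.82% of all genes. The absence of edgeR calls does not show that the hairpins act alike on the other genes.

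Other spliceosome genes, listed by complex and not by prefix, were counted in the same fit. Of 93 genes 28 were lower and 2 higher, against 14.2% of all genes called lower and 14.8% called higher, with a median of -0.21. The list of Prp19 complex and catalysis factors had 16 of 34 lower and none higher, against the same background, with a median of -0.38. Examples were Cdc40, a second-step factor, at -0.79 (SE 0.104), and the helicase Dhx16 at -0.54 (SE 0.102). Cwc22, which helps to load the exon junction complex, was at -0.68 (SE 0.111) with 47.7 ± 4.66 CPM in the knockdown libraries and 76.2 ± 1.06 CPM in shNT (SD, n = 4 each), and the B-complex protein Ik was at -0.70 (SE 0.13).

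Other snRNP-associated proteins had 8 of 29 lower and 1 higher, against 14.2% and 14.8% of all genes. The tri-snRNP protein Usp39 was at -0.83 (SE 0.185) and the 3′ splice site factor Rbm17 at -0.57 (SE 0.11). Of the genes of the minor spliceosome, which removes a rare class of introns, Pdcd7 was at -0.78 (SE 0.112) and Rnpc3 at 0.54 (SE 0.106), in opposite directions. Pdcd7 had 22.6 ± 7.32 CPM in the knockdown libraries and 37.4 ± 2.65 CPM in shNT (SD, n = 4 each). Rnpc3 had 37.0 ± 3.35 CPM in the knockdown libraries and 25.3 ± 0.823 CPM in shNT (SD, n = 4 each). These values average both hairpins, which can differ for single genes. Over the 29 genes of this list, sh1Ybx1 minus sh2Ybx1 ran from -0.47 to 0.82 in log2 fold change, with 0 called in edgeR. Among 20 snRNP assembly genes, against the same background, 3 were lower and 1 higher. These were the cap-binding protein Ncbp1 at -0.63 (SE 0.117), the snRNA export factor Phax at -0.44 (SE 0.122) and the import adaptor Snupn at -0.67 (SE 0.177), which were lower, and the SMN complex protein Gemin7 at 0.65 (SE 0.159), which was higher. Against the same background, 1 of 10 genes of the exon junction complex was lower, Rnps1 at -0.48 (SE 0.148). The edgeR adjusted p of these 13 named genes lay between 0.0028 for Cdc40 and 0.0425 for Rnps1. The count of called genes in the 93 was 51 without shNT replicate 4, where 50.3% of all genes were called. It was smaller than with all libraries in the fits that leave 1 library in a hairpin's arm, as it was among all genes.

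The transcripts of the 49 genes were then examined for splicing. In the authors' deposited table of splicing events, 41 of the 49 genes had 185 events, and 16 events in 12 genes had a p-value under 0.05, or 8.65% against 7.15% of all 26983 events. With p under 0.01 there were 7, against a background of 3.68%. By class, 4 of 70 complex events (background 3.65%), 1 of 4 cassette exons (background 6.43%) and 7 of 35 retained introns were under 0.05, with 1 event in each of 4 other classes. These p-values are not adjusted. Lsm8, Lsm10, Lsm11, Prpf6, Prpf18, Sf3a3, Sf3b5 and Snrpd3 had no row there. Delta PSI is the difference in the share of transcripts that include the alternative piece, from -1 to 1. The files do not state its direction. A positive value was taken to mean more inclusion in the knockdown libraries, because of 81 pairs of a retained intron with p under 0.05 and an exon bin inside it, 78 had the same sign in the authors' deposited tables.

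Among retained introns most values were positive. The authors' deposited table listed 35 of them in 15 of the genes, of which 30 matched an intron annotated in GENCODE M21, and 32 had a positive delta PSI, 1 a negative one and 2 a value of 0. Over all 4479 retained introns 79.5% were positive. The median was 0.061 for the 35 introns and 0.052 for all. With a p-value under 0.05 there were 7 of 35, all positive, or 1 in 5, against a background of 23.6% of all retained introns.

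Prpf4, a U4/U6 protein, had the largest of these 7 values in the authors' deposited table, with a delta PSI of 0.19 (p = 0.00576) for intron 11, which lies within its coding region (plus strand, GRCm38). The whole intron is shown with its first and last 2 bases, the splice sites, in capitals, because it is short enough to be read in full; its sequence was taken from the GENCODE M21 transcript that keeps it.
Prpf4 intron 11, chr4:62422301-62422414: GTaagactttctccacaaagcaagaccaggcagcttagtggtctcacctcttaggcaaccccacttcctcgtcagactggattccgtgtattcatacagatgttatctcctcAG
It has 114 bases and a GC content of 48.2%. The 7 introns measured 73 to 627 bases, with a median of 114, against medians of 189 for the 35 and 149 for all retained introns. The other 6 lay in Lsm14b (delta PSI 0.032, p = 5.18e-05), Lsm4 (0.12, p = 0.00521), Sf3b2 (0.047, p = 0.00792), U2af1l4 (0.14, p = 0.0148), Sf3a2 (0.078, p = 0.0321) and Prpf40b (0.16, p = 0.0355) in the authors' deposited table.

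**Figure D4:**
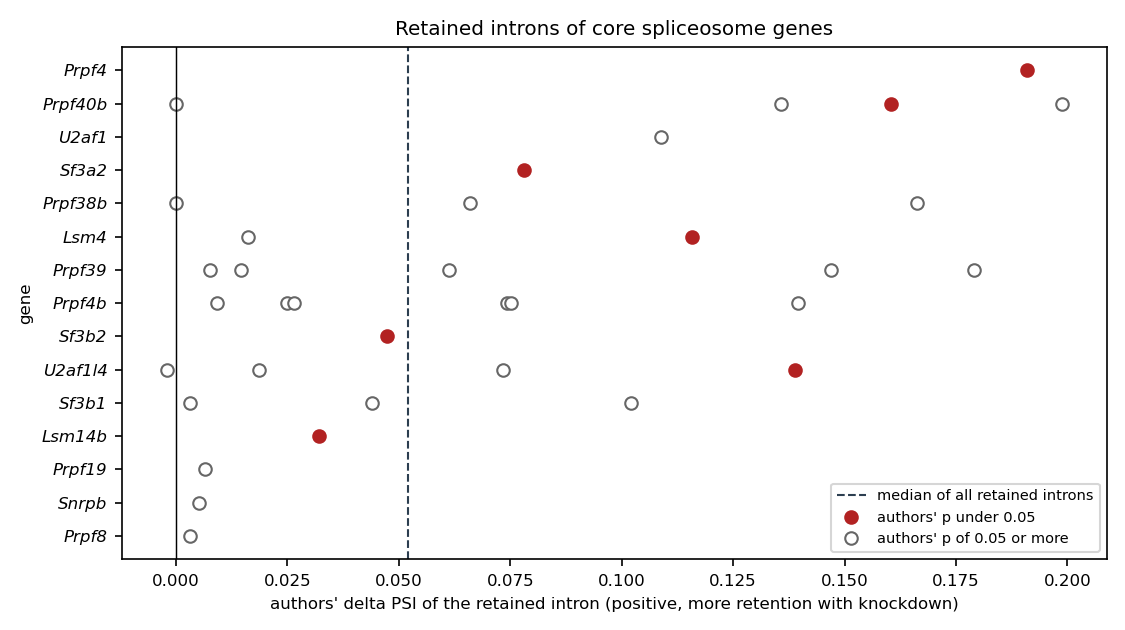
Delta PSI of the 35 retained introns in 15 spliceosome genes, from the authors' deposited table, 1 point an intron; filled points have a p-value under 0.05 and the dashed line is the median of all 4479 retained introns (0.052). Values lie at or right of 0 for 34 of the 35, and the filled points are spread over 7 genes.

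A large delta PSI did not always come with a small p-value. Of 12 retained introns with a delta PSI of 0.1 or more, 4 had a p-value under 0.05, and another Prpf40b intron had the largest value of all 35, 0.20, with p = 0.0544 in the authors' deposited table. At the other end, an alternative last exon of Lsm14b had p = 4.41e-05 and a delta PSI that rounds to 0 in the authors' deposited table. Of the 16 events with p under 0.05, 10 had a delta PSI of at least 0.1 in size, 9 of them positive; the negative one was an alternative first exon of Sf3a2 (-0.27, p = 0.00537) in the authors' deposited table.

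The largest event of the 49 genes was in Prpf38b, the called higher gene. The authors' deposited table gave a complex event spanning intron 4 of its coding transcript, with a delta PSI of 0.41 and p = 3.05e-06. It is also the gene with both exon bins that the 49 genes had in the authors' deposited exon table (2 of 581 bins, 543 of the 581 being higher with knockdown). The 2 bins lie inside that same intron of 2452 bases. Bin E007 is a 71-base exon found only in Prpf38b-208, which is annotated as a target of nonsense-mediated decay, and bin E006 is the last 251 bases of the intron, covered by Prpf38b-202, annotated as a retained intron.

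The splice sites of intron 4 and bin E006 are shown because the signal lies between them. Capitals mark the GT that opens and the AG that closes the intron, with 10 exon and 20 intron bases around each (minus strand, GRCm38, from GENCODE M21 transcripts).
Prpf38b intron 4, 5′ splice site, chr3:108907767-108907796: tgatgaggagGTatgtcagcaagggtaatc
Prpf38b intron 4, 3′ splice site, chr3:108905325-108905354: gtatctcttatgtttcatAGgacctagatg
Prpf38b bin E006, chr3:108905335-108905585: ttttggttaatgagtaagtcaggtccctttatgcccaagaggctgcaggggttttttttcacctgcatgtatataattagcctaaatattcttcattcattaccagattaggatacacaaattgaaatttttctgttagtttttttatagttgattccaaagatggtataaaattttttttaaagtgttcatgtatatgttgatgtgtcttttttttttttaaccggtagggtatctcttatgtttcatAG
The bin has a GC content of 30.3% and ends with the same AG. The length of the 71-base exon is not a multiple of 3. Joined into the coding sequence of Prpf38b-201, which has 542 codons, it puts a stop codon after 190 codons, inside the exon itself, by the annotated bases.

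Bin E007 had 201 and 174 reads in sh1Ybx1 and 198 and 228 in sh2Ybx1, against 94, 97, 59 and 56 in shNT replicates 1 to 4, and bin E006 had 163 and 123 reads in sh1Ybx1 and 156 and 187 in sh2Ybx1, against 68, 88, 37 and 39 in shNT replicates 1 to 4. All knockdown libraries were above all shNT libraries in both bins. Set against the gene's own count, E007 was at 3.17% ± 0.130 in the knockdown libraries and 1.51% ± 0.170 in shNT, and E006 at 2.48% ± 0.258 in the knockdown libraries and 1.12% ± 0.246 in shNT (SD, n = 4 each). The share was thus 2.10 and 2.21 times as high in the knockdown libraries, on top of the higher count of the gene. The authors' deposited exon table gave log2 folds of relative use of 1.24 (adjusted p = 5.60e-33) for E007 and 1.28 (adjusted p = 3.78e-12) for E006. That table was chosen on this contrast, since its largest adjusted p is 0.00999, so the values describe the bins and no further test was made. The bin counts and the gene counts come from separate deposited tables.

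**Figure D5:**
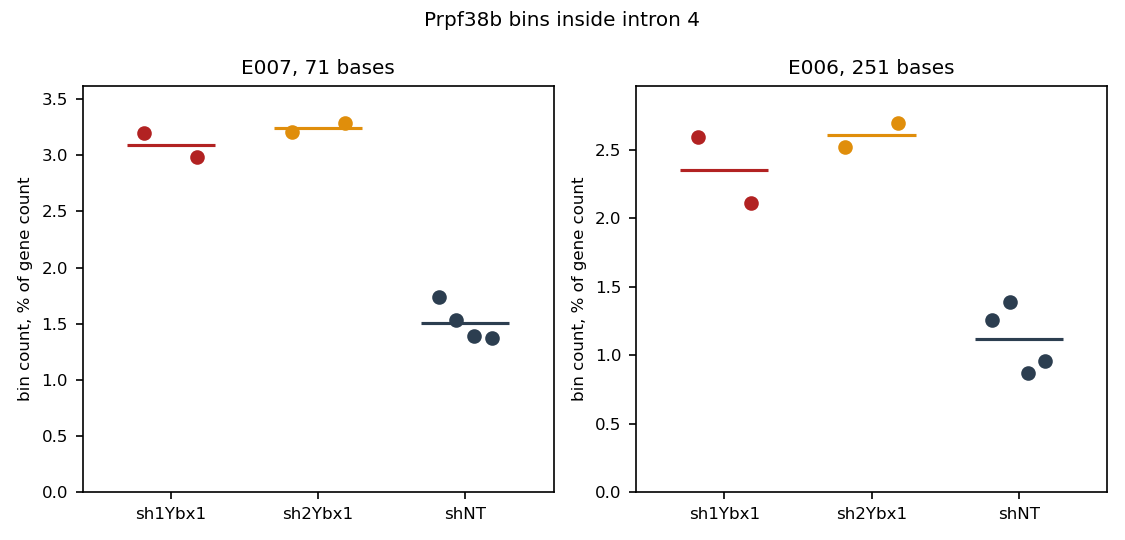
Reads of Prpf38b bins E007 (71 bases) and E006 (251 bases), both inside intron 4, as a percentage of the gene's count in each library, with group means as lines. Both bins are higher in all sh1Ybx1 and sh2Ybx1 libraries than in any shNT library.

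The next 5 events, in 4 genes, also had p under 0.05 and lay at introns that hold annotated exons. In Sf3b1 the authors' deposited table gave 2 complex events in intron 4 that share their 5′ splice site, with delta PSI of 0.19 (p = 0.0283) and 0.13 (p = 0.0437). They differ in the far end: the second stops at a 56-base exon of Sf3b1-208, annotated for nonsense-mediated decay. In the deposited TPM values Sf3b1-208 was listed at 0 in all 4 knockdown libraries, against 0.340%, 0%, 8.78% and 4.03% of the gene's TPM in shNT replicates 1 to 4 (limma adjusted p = 0.773). Which piece of the intron the delta PSI of these complex events counts is not stated. Their sign can therefore not be set against this share. The splice sites of the full intron are shown (minus strand, GRCm38), with GT and AG in capitals as above.
Sf3b1 intron 4, 5′ splice site, chr1:55016356-55016385: tttgcagatgGTaattctttcccacttttc
Sf3b1 intron 4, 3′ splice site, chr1:55014553-55014582: gttgctgttcttttctgcAGgagggaagac
In Prpf39 a complex event at intron 8 had a delta PSI of 0.24 (p = 0.0130) in the authors' deposited table, around a 100-base exon found in Prpf39-202, annotated for nonsense-mediated decay, and in 2 transcripts annotated as retained introns. A cassette exon event in Prpf3 intron 3 had 0.13 (p = 0.0190) in the authors' deposited table; that intron holds a 96-base exon of Prpf3-203, also annotated for decay. A 5′ splice site event of U2af2 at intron 5 had 0.035 (p = 0.0380) in the authors' deposited table, where a 64-base exon is found in U2af2-204, annotated for decay, and in the coding U2af2-202. At no annotated intron and with no annotated exon inside, an alternative 3′ splice site of Sf3b2 had a delta PSI of -0.0033 (p = 0.0315) in the authors' deposited table. Of the 16 events 12 matched an annotated intron, and 3 of the 11 called genes, Prpf38b, Lsm14b and Sf3b2, had one.

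Transcript shares estimated from the deposited TPM values gave no called gene. Over 236 transcripts of 45 of the genes, 0 differed in share between both hairpins and shNT (limma on arcsine square root shares, adjusted over 45624 transcripts; background 0.00219%, 1 transcript), and 13 had an unadjusted p under 0.05 (5.51%, against 8.06% of all). Prpf38b-208, which holds the 71-base exon, had 36.1% and 46.9% of the gene's TPM in sh1Ybx1 and 41.1% and 50.4% in sh2Ybx1, against 40.5%, 35.3%, 47.0% and 31.1% in shNT. The groups overlapped (limma adjusted p = 0.786). These shares, over 30% in every library, are far above the 1.37% to 3.29% of reads in the exon itself. The exon is a small part of the transcript, so the 2 are not on the same scale.

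Ybx1 was named for binding the Y-box, a promoter element that contains the CCAAT motif, so promoters were searched for CCAAT on either strand (read as CCAAT or ATTGG). RefSeq windows of 250 bases before to 50 after the start (GRCm38.p6) matched 39 of the 49 genes. The motif was in 17 of the 39 (43.6%), against 41.1% of 27025 genes, and in 4 of the 9 called genes that had a window (44.4%). The promoters of Prpf8, the called lower gene with the most matches, and of Prpf38b, the called higher gene, are shown with the motif in capitals.
Prpf8 promoter, chr11:75486527-75486826, plus strand: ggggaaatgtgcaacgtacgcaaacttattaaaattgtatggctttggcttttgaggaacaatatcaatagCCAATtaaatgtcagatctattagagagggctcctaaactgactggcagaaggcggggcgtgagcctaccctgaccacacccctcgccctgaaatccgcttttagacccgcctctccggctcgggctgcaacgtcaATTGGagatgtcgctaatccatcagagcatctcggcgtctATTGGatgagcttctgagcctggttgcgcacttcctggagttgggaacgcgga
Prpf38b promoter, chr3:108911680-108911979, minus strand: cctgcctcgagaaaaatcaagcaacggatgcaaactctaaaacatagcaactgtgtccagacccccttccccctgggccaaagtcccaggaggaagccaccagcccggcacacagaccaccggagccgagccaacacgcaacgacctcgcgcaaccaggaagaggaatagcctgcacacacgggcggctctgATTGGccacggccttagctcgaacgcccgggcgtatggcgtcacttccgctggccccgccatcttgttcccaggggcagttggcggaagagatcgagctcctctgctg
Prpf8 was chosen for its matches, so its holding the motif was fixed by that choice. Of the other called lower genes shown by a window, Lsm14b and Sf3b2 had a match. Lsm14a, Lsm8, Prpf6, Sf3a1 and Snrpa had none. A match is a description of the letters and not a binding site.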

How the data were processed

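RNA sequencing of 4 knockdown libraries (2 of sh1Ybx1, 2 of sh2Ybx1) and 4 shNT libraries was deposited as processed tables. The gene table holds raw counts per gene, which the authors deposited with their log2 fold changes and adjusted p-values. The deposited gene and transcript tables hold TPM and FPKM, per the file headers. The deposited event table holds delta PSI, a score from -1 to 1, and an unadjusted p-value, and the deposited exon table holds bin counts, a log2 fold and an adjusted p-value. STAR, featureCounts, RSEM and limma stand in the submitters' processing notes, with the builds GRCm38 and mm9, without versions or roles. The Prpf38b bins matched GENCODE M21 exons on GRCm38, which was checked. Among the events of the 49 genes, 30 of 35 retained introns and 12 of the 16 events with p under 0.05 matched an annotated intron. Many events of the other classes did not. Whether counting used strand is not stated, and reads of overlapping genes may be mixed.

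edgeR 4.0.16 (R 4.3.3) was run with TMM scaling, filterByExpr and a fit of 3 group means over the 8 libraries. The 4 contrasts set the average of the hairpins, sh1Ybx1 and sh2Ybx1 each against shNT, and the hairpins against each other, at an adjusted p under 0.05. CPM are after TMM scaling. The SE was derived from the log2 fold change and its F statistic. Rows with an identifier but no gene symbol (40, holding 0.0587% of counts) stayed in the fit. Transcript shares of genes with a mean of at least 5 TPM were tested with limma 3.58.1. DESeq2 1.42.0, other scalings and filters, limma on log2(TPM + 1), log2(TPM + 0.1) and log2(FPKM + 1), and leaving out each library were alternatives. The procedures were tested on simulated data.

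The 49 genes, the role groups and the other lists were chosen with earlier results of these data known. Results of 1 gene are not reported here and are left out of the figures, but it is kept in the counts. All 8 values are given for each other called gene, for the 2 highest and 2 lowest by TPM, and for the highest and lowest fold change in each role; beyond these, up to 4 called genes of each other list, events with p under 0.05 and every exon bin are named. Depth was 22779437 to 37549926 counts per library. Binning, event calling and the p-values of the last tables are the authors' own and could not be recomputed here.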

Additional observations from a re-analysis of the deposited data

Results flagged for a closer look

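Of the 26 spliceosome genes named by rule, 1 had a library that stood apart within the shNT group. In Prpf38b, shNT replicate 3 was at 112 CPM while the other 3 shNT libraries were at 177 to 184 CPM, and its gap to the nearest of them was 0.890 of the group's whole range, above the 95% critical value of Dixon's test for 4 samples. Chance flags about 1 in 20 groups, and 8.82% of all genes tested had such a library. The 4 knockdown libraries, at 244 to 268 CPM, were above all shNT libraries with or without it. With shNT replicate 3 left out, the fitted log2 change was 0.46 (edgeR adjusted p = 0.031), against 0.63 with all libraries, and over the 8 fits that leave out 1 library the edgeR adjusted p ran from 0.00842 to 0.104.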

How the results depend on the processing

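Called genes with both hairpins were 11 of the 49, where 28.9% of all genes were called. Limma called 3 on log2(TPM + 1), 2 on log2(TPM + 0.1) and 1 on log2(FPKM + 1), against 4.06%, 3.18% and 2.88% of all genes. Fits without 1 shNT library called 8 to 28, against 22.7% to 50.3% of all genes. With sh1Ybx1 the count was 5 (19.2% of all genes), against 12 by DESeq2 (26.6%) and 3 to 25 without 1 shNT library (13.6% to 43.7%). Limma called 1 and 0 on the TPM scales (1.89% and 1.42%) and 1 on FPKM (2.01%). With sh2Ybx1 the count was 6 (19.9% of all genes), against 13 by DESeq2 (28.1%) and 3 to 25 without 1 shNT library (13.2% to 43.2%). Limma called 0 on both TPM scales (1.32% and 1.15%) and on FPKM (0.585%). In each comparison with shNT, fits without 1 knockdown library called fewer of the 49 genes and of all genes. For sh1Ybx1 against sh2Ybx1 the count was 0 (0.524% of all genes), against 2 by DESeq2 (5.82%) and 0 to 3 without 1 shNT library (0.141% to 12.3%). The 93 other spliceosome genes had 30 called, and 51 without shNT replicate 4, where 50.3% of all genes were called. No transcript share was called by limma, and 0 to 10 were without 1 library. Of 16 splicing events 7 remained with p under 0.01 and 10 with a delta PSI of at least 0.1, and the 2 exon bins did not change. Replicate numbers are shared by only part of the libraries. Same-numbered libraries correlated at -0.0146 to 0.18 in their deviations from the group mean. With 2 libraries per hairpin these deviations mirror each other, so the check cannot decide whether the numbers pair the samples. With the replicate block the counts were 25 with both hairpins, 27 with sh1Ybx1, 25 with sh2Ybx1 and 8 between hairpins. The shares of all genes were 49.1%, 45.3%, 44.9% and 22.6%. Of the 93 other genes 51 were called, against the same 49.1%. Replicates 3 and 4 exist only in shNT, so this block takes those libraries out of the comparison. Leaving out a knockdown library leaves 1 library in that arm, which is assumed to vary like the others. No result changed direction while called. Among the named genes 447 values kept their side of the threshold, 133 lost it and 20 passed it. Causes were not tested.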
